A study of Mus musculus with 6 samples.

Results

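The miR-378 family was examined as the 5 entries of the miRNA count table that carry its name, mmu-miR-378a-3p, mmu-miR-378a-5p, mmu-miR-378b, mmu-miR-378c and mmu-miR-378d, out of 199 entries in all (mmu, for mouse, is left out from here on). All 5 passed the filter on low counts, as did 195 of the 199 entries. The family was chosen with earlier results of this same contrast known. Its differences between the groups are therefore given as a description. No p-value is printed for its entries, and where an entry is said to be past the threshold of the fit over all miRNAs, that too only describes it.

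The libraries came from mouse intestinal organoids, epithelial structures grown in a gel from isolated crypts. In 3 libraries the organoids had received PBS, the vehicle, and in 3 they had received BMP4 at 0.5 µg/ml for 4 days. BMP4, a bone morphogenetic protein, is a signal of the upper crypt and the villus. No genotype, strain or age is given in the labels, and they do not say whether libraries of 1 group were made from different cultures, so p-values measure no more than the spread among these 6 libraries, and part or all of it may be technical. The question was which miRNAs change as organoids differentiate under BMP4.

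A miRNA is cut from a hairpin RNA as a duplex, of which usually a single strand, the guide, is kept, while the other strand is degraded. The strand of the 5′ arm is named 5p and that of the 3′ arm 3p. Bases 2 to 8 of the guide form the seed, which pairs with target messages. Mir378a lies within Ppargc1b, the gene of the coactivator PGC-1β, which drives genes of mitochondria and fatty acid oxidation, and miR-378a is known in mice as a regulator of energy use in liver, muscle and fat. Mir378b, Mir378c and Mir378d are near copies at other sites of the genome. Ppargc1b message was not measured here, because the libraries held small RNA alone.

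Mature sequences were found in RefSeq (GRCm38.p6) for 3 of the 5 entries. They are shown because the copies differ by so little that reads may be counted under more than 1 of them. These 3 also do not share a seed. Sequences of miR-378a-3p and miR-378a-5p were not found, so their seeds were not compared. Capitals mark the seed.
miR-378b: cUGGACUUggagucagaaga
miR-378c: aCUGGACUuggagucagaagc
miR-378d: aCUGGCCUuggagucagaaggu
The mature miR-378b spans chr11:88352839-88352858, miR-378c chr14:46954905-46954925 and miR-378d chr10:126710355-126710376. Counted from 1 at the 5′ end of miR-378c, miR-378d differs at A6C, inside the seed, and at C21G near the 3′ end. miR-378b begins 1 base later than miR-378c, which shifts its seed by 1 base, and differs within the aligned bases only at C21A. The longest run shared by miR-378b and miR-378c was 19 bases, and that shared by miR-378c and miR-378d was 14 bases. The copies also sit on different sides of their hairpins. The mature sequence took positions 4 to 24 of the 99 bases of Mir378c and positions 16 to 37 of the 110 bases of Mir378d, but positions 67 to 86 of the 92 bases of Mir378b.

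The libraries held 259811 to 2248866 counts in PBS and 998854 to 3486409 in BMP4. Levels below are CPM, counts divided by a library size that was first adjusted by the trimmed mean of M values (TMM). TMM takes most miRNAs as unchanged between groups. A read covers a whole mature miRNA, so CPM was not scaled by length. Whether different miRNAs were captured equally well was not tested, so comparisons between entries are comparisons of counts. The TMM factors were 1.78 to 1.97 in PBS and 0.375 to 0.651 in BMP4, the lowest in BMP4 replicate 2, which stood apart from the other BMP4 libraries. A few miRNAs took most of the BMP4 reads. The 6 measured arms of miR-192, miR-194 and miR-215, miRNAs of mature intestinal epithelium, left 60.6 to 63.8% of counts to all others in PBS and only 20.4 to 22.6% in BMP4. For this reason a level per total count and a level per TMM count can differ in direction, and each is named below.

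Among these organoid miRNAs, miR-378a-3p was abundant and every other entry of the family was far lower (the plot of family levels by library). By count it was the 10th to 12th of 199 entries in the PBS libraries and the 6th or 7th in every BMP4 library, an order that needs no scaling. In PBS its mean CPM of 12856 ± 2439 (SD, n = 3) fell between those of miR-200c-3p (14778 ± 2248) and miR-26a-5p (11306 ± 948), and it differed from neither beyond the spread of the libraries. In BMP4 its mean of 29642 ± 762 (SD, n = 3) came next to let-7f-5p (46624 ± 25644) and let-7g-5p (23630.1 ± 3289). Of the 2, let-7f-5p was within its own wide spread of miR-378a-3p, while let-7g-5p was lower by more than the SDs.

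**Figure D1:**
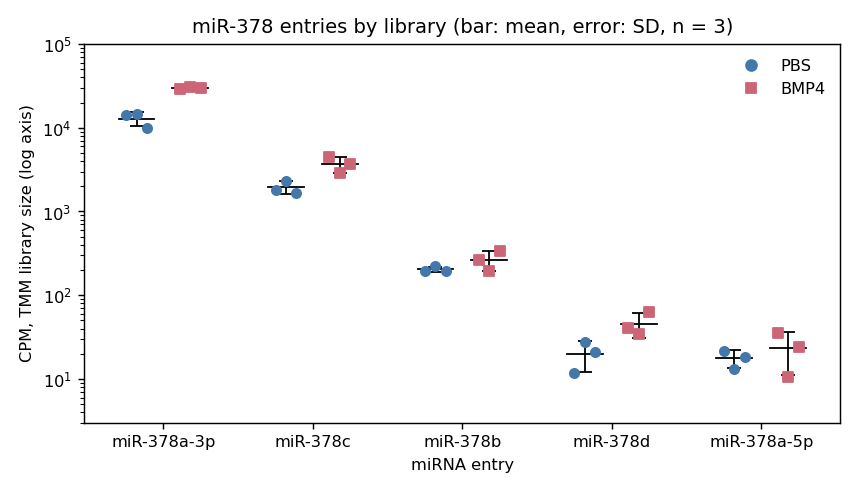
CPM on the TMM library size (log axis) of the 5 miR-378 entries in each of the 3 PBS libraries (circles) and 3 BMP4 libraries (squares), with the mean as a bar and the SD as the error. The points of miR-378a-3p lie between 10051 and 14473 in PBS and between 28888.5 and 30413 in BMP4, while those of miR-378b and miR-378a-5p overlap.

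On GRCm38 (GENCODE M21), Mir378a lies at chromosome 18, 61397835 to 61397900 on the - strand, in an intron of Ppargc1b on the same strand. Its end lies 2531 bases from the 5′ end of that gene. An annotated miRNA gene of the opposite strand, Gm25301, overlaps it. Mir378b lies at chromosome 11, 88352773 to 88352864 on the + strand, in an intron of Msi2, and Mir378c at chromosome 14, 46954830 to 46954928 on the - strand, in an intron of Samd4. Both Msi2 and Samd4 are transcribed from the opposite strand, so Mir378a alone of the 4 hairpins sits in a host gene in the sense direction. Mir378d lies at chromosome 10, 126710282 to 126710391 on the - strand, outside annotated genes. These are positions of the annotation and not of the count table.

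miR-378a-3p, the guide strand of Mir378a, stood at 14046, 14473 and 10051 CPM in the PBS libraries and at 28888.5, 30413 and 29625 CPM in the BMP4 libraries. With TMM every BMP4 library was thus above every PBS library, and the 3 BMP4 values were closer together than the PBS values. On this scale its level was 2.31 times as high in BMP4, and edgeR fitted a log2 fold change at 1.21 ± 0.28 (SE, n = 3 per group).

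Taken per total count, the same miRNA pointed the other way. In PBS replicates 1, 2 and 3 it took 2.76% (Wilson interval at 95% from 2.70 to 2.83), 2.57% (from 2.55 to 2.60) and 1.96% (from 1.94 to 1.98) of all counts. In BMP4 it took 1.73% (from 1.71 to 1.76), 1.14% (from 1.12 to 1.16) and 1.93% (from 1.91 to 1.94). The shares were lower in every BMP4 library, although PBS replicate 3 and BMP4 replicate 3 were almost level, and the log2 fold change with total counts was -0.60 ± 0.24 (SE, n = 3 per group). The median log2 fold change over all 195 tested miRNAs moved from 0.03 with TMM to -1.78 with total counts. On either scale miR-378a-3p lay above the median miRNA. A change of scaling moves all miRNAs by about the same amount, so the scales are not separate evidence of that position. In bulk RNA, fewer cells that hold a miRNA and less of it per cell cannot be told apart.

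With the arms of miR-192, miR-194 and miR-215 left out of the total, an alternative added after the data were seen, miR-378a-3p took 4.33, 4.11 and 3.24% of the remaining counts in PBS. In BMP4 it took 8.45, 5.58 and 8.53% of the remainder. All 3 BMP4 values were higher than the PBS values, with BMP4 replicate 2 the lowest of them, and the means were 3.89 ± 0.576% and 7.52 ± 1.68% (SD, n = 3). The plot of miR-378a-3p against 3 totals sets these measures side by side.

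**Figure D2:**
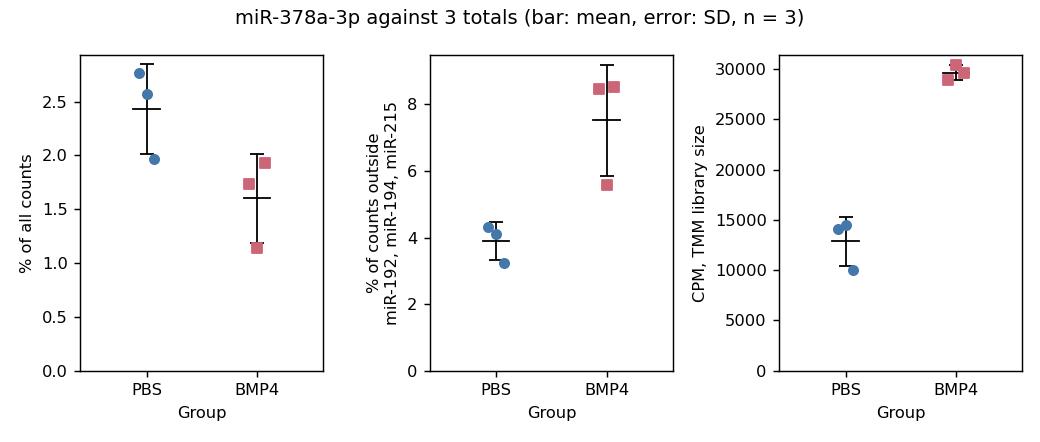
miR-378a-3p by library as a percent of all counts, as a percent of counts outside miR-192, miR-194 and miR-215, and as CPM on the TMM library size, each axis starting at 0, with bars for the mean and errors for the SD of 3 libraries. BMP4 libraries (squares) are lower than PBS libraries (circles) in the first panel and higher in the other panels.

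Ratios of counts within a library depend on no scaling. Per 100 counts of the miR-200 family (5 arms of epithelial identity), miR-378a-3p had 19.8, 20.6 and 15.6 in PBS against 40.5, 38.1 and 46.0 in BMP4. The groups did not overlap, and the mean ratio was 2.23 times as high in BMP4. Per 100 counts of the let-7 5p arms (10 entries, miRNAs of differentiated cells), it had 16.2, 13.1 and 11.8 in PBS against 35.9, 20.3 and 32.4 in BMP4. These values also lay apart, with BMP4 replicate 2 nearest to PBS. Per 100 counts of miR-192-5p, a miRNA of the intestinal epithelium, it had 16.2, 14.9 and 11.3 in PBS against 14.5, 8.68 and 14.9 in BMP4. Here the groups overlapped, so relative to miR-192-5p no separation was seen.

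Against each of the 194 other tested miRNAs in turn, the ratio of miR-378a-3p was higher in every BMP4 library than in any PBS library for 116 partners, lower for 15 and overlapping for 63. The median tested miRNA had 27 partners on the higher side and 35 on the lower side. The corresponding counts were 98 higher and 16 lower for miR-378c, 95 and 15 for miR-378d, 56 and 26 for miR-378b and 42 and 19 for miR-378a-5p.

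The other strand of the same hairpin, miR-378a-5p, was close to the limit of these libraries. Its counts were 11, 52 and 77 in the PBS libraries and 23, 4 and 55 in the BMP4 libraries, which made 21.5, 13.0 and 18.5 CPM in PBS and 35.7, 10.7 and 24.2 CPM in BMP4. The groups overlapped, BMP4 replicate 2 being the lowest of all and BMP4 replicate 1 the highest. A count of 3 was worth up to 8.02 CPM on the TMM scale in BMP4 replicate 2, so small differences were not detectable at this depth. The log2 fold change was 0.53 ± 0.44 (SE, n = 3 per group), and -1.21 with total counts.

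The hairpin was thus almost wholly read as its 3p arm. For 1000 counts of miR-378a-3p PBS libraries had 1.53 (Wilson interval from 0.856 to 2.75), 0.898 (from 0.685 to 1.18) and 1.84 (from 1.48 to 2.30) counts of miR-378a-5p. BMP4 libraries had 1.23 (from 0.823 to 1.85), 0.351 (from 0.137 to 0.904) and 0.818 (from 0.628 to 1.06). The mean was 1.42 ± 0.482 in PBS and 0.801 ± 0.442 in BMP4 (SD, n = 3). The groups overlapped. Over all 6 libraries the minor arm made up 0.111% of the counts of both arms. That was the lowest share among the 34 hairpins with both arms in the table, whose median was 8.50%. Hairpins with only 1 arm in the table could not enter this ranking. How entries were kept is not stated, so hairpins with a still rarer minor arm may be missing from it. Since reads of the near copies may be added to miR-378a-3p, the share is uncertain.

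Of the near copies, miR-378c was the most abundant. It stood at 1820.3, 2337 and 1680 CPM in PBS and at 4492, 2902 and 3692 CPM in BMP4. All BMP4 values were above all PBS values, with BMP4 replicate 2 the closest to PBS, and the log2 fold change was 0.93 ± 0.30 (SE, n = 3 per group), against -0.83 with total counts. By rank among the 199 entries it was 27th to 32nd in PBS and 23rd to 30th in BMP4, so the ranks overlapped.

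miR-378b was at 194, 222 and 196 CPM in PBS and at 262, 195 and 334 CPM in BMP4. BMP4 replicate 2 lay among the PBS libraries and the other BMP4 libraries above them, so the groups overlapped. Its log2 fold change was 0.38 ± 0.35 (SE, n = 3 per group), and -1.36 with total counts.

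miR-378d, whose seed differs from that of miR-378c by the change given above, was rare. Its counts were 6, 111 and 87 in the PBS libraries and 26, 13 and 142 in the BMP4 libraries, or 11.7, 27.7 and 20.9 CPM and 40.3, 34.7 and 62.6 CPM. The CPM did not overlap, but they rest on as few as 6 counts in PBS replicate 1 and 13 in BMP4 replicate 2. The log2 fold change was 1.14 ± 0.41 (SE, n = 3 per group), and -0.57 with total counts, where the groups overlapped.

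In every library the order of levels was miR-378a-3p, then miR-378c, then miR-378b, each several times the next. The levels of miR-378d and miR-378a-5p followed and overlapped in PBS. They also overlapped in BMP4, where miR-378a-5p reached 35.7 CPM in replicate 1 and miR-378d was at 34.7 CPM in replicate 2.

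By edgeR with Benjamini-Hochberg adjustment over all 195 miRNAs and a threshold of 0.05, miR-378a-3p, miR-378c and miR-378d, 3 of the 5 entries, were past the threshold, all higher in BMP4 with TMM. The share called over all tested miRNAs was 30.3%, or 17.4% for those higher in BMP4. Since the family was chosen from this contrast, nothing is read from that count. The TMM CPM of the groups did not overlap for the same 3 entries, as for 43.6% of all tested miRNAs and, counting those higher in BMP4, 23.6%; 12.8% were called lower. The median log2 fold change of the 5 entries was 0.93, against 0.03 over all tested miRNAs, as shown in the plot of fold change against level.

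**Figure D3:**
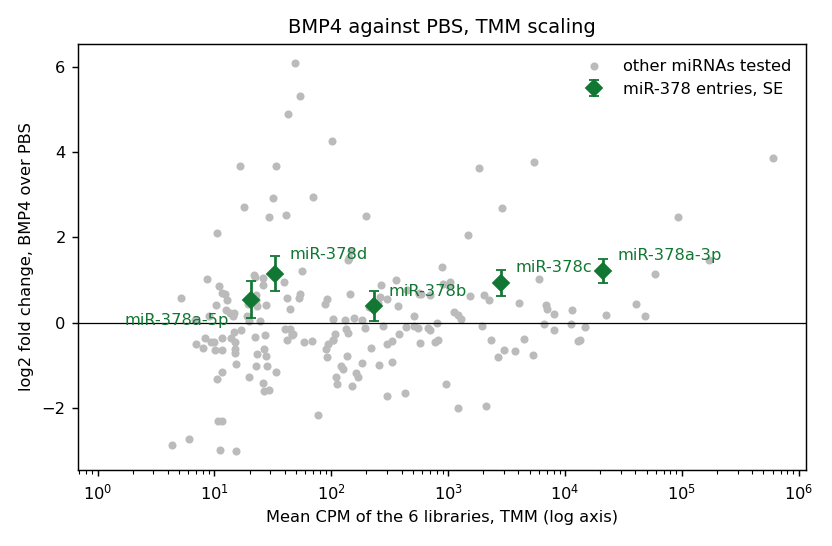
Log2 fold change of BMP4 over PBS with TMM scaling against the mean CPM of the 6 libraries (log axis) for the 195 tested miRNAs (grey) and the 5 miR-378 entries (green diamonds, error bars SE). The 5 entries have values from 0.38 to 1.21 and span the range from rare to abundant miRNAs.

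With total counts, 4 of the 5 entries were past the threshold and lower in BMP4, the exception being miR-378d. Of all tested miRNAs 81% were then called lower and 87.7% called in either direction. The total-count CPM of the same 4 entries did not overlap and were lower in BMP4, as for 82.1% of all tested miRNAs, and 87.7% did not overlap in either direction. Over all miRNAs 13 were then higher and 158 lower, against 34 higher and 25 lower with TMM. The size factors of DESeq2 (RLE) gave 1.18 for miR-378a-3p and the upper quartile gave 1.07. In the plot of 5 scalings the order of the entries stayed similar while the zero line moved. That follows from the scaling, which moves all miRNAs by about the same amount.

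**Figure D4:**
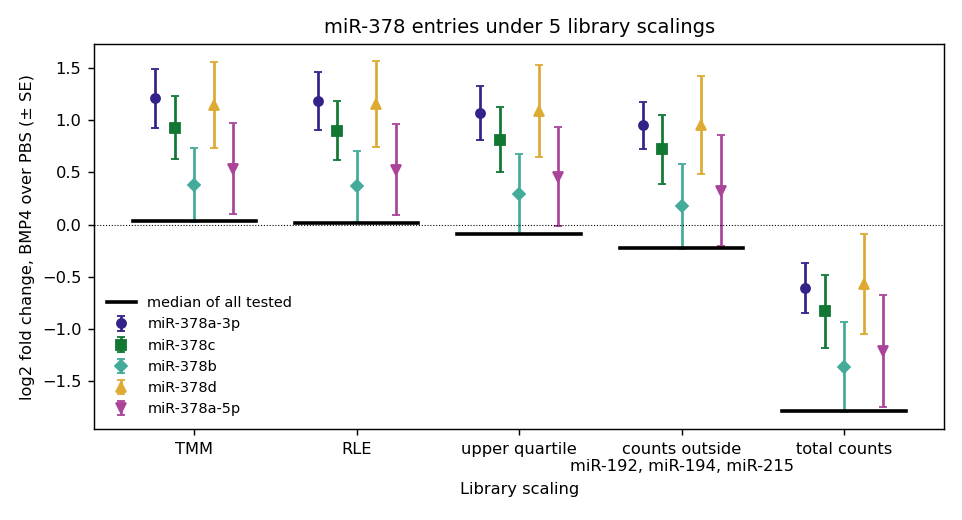
Log2 fold change of BMP4 over PBS (± SE) of the 5 miR-378 entries under 5 library scalings, with the median of all 195 tested miRNAs as a black line. The 5 entries lie above that line under each scaling, and below 0 only with total counts. A change of scaling moves the entries and the line by about the same amount.

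Of 16 alternatives to the fit, 15 put miR-378a-3p past the threshold and higher in BMP4, with log2 fold changes from 0.95 to 1.38, and total counts put it past the threshold and lower, at -0.60. Because the family was chosen on this contrast, these counts give no support to the difference. miR-378c was past the threshold in 2 of the 6 fits that left out a library, those without PBS replicate 2 (log2 fold change 1.15) and without BMP4 replicate 2 (1.07). Its call was lost when PBS library 1 (0.95) or 3 (0.92) was left out, or BMP4 library 1 (0.76) or 3 (0.93). miR-378d was past the threshold only without BMP4 replicate 2 (1.27). Its call was lost when PBS library 1 (1.05), 2 (1.50) or 3 (1.24) was left out, or BMP4 library 1 (1.24) or 3 (0.82). Neither was past the threshold with the total outside miR-192, miR-194 and miR-215, where miR-378c was at 0.72 and miR-378d at 0.95. With upper quartile scaling (1.08) or no filter (1.15) miR-378d also fell short of it.

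Summed over its 5 entries, the family stood at 16093, 17073 and 11966 CPM in the PBS libraries and at 33718, 33556 and 33738 CPM in the BMP4 libraries. A read counted under more than 1 entry would enter this sum more than once, so the sum is uncertain. With TMM the sum did not overlap between groups and was nearly the same in all BMP4 libraries. That closeness was seen on the TMM scale and not on the others. As a percent of all counts it was 2.85 ± 0.446 in PBS and lower, 1.83 ± 0.500, in BMP4 (SD, n = 3). The BMP4 libraries were at 2.02, 1.26 and 2.20% of all counts. Of the counts outside miR-192, miR-194 and miR-215 the sum took 4.96, 4.85 and 3.86% in PBS. In BMP4 it took 9.86, 6.16 and 9.71% of them, with replicate 2 the lowest.

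Within the family, the mix of entries was compared by its ratios (the plot of entries relative to miR-378a-3p). miR-378a-3p held 87.3, 84.8 and 84.0% of family counts in PBS and 85.7, 90.6 and 87.8% in BMP4, overlapping between groups. Per 100 counts of miR-378a-3p, miR-378c had 13.0, 16.1 and 16.7 counts in PBS. In BMP4 it had 15.5, 9.54 (95% Wilson interval 8.97 to 10.2) and 12.5 (12.2 to 12.7). The groups overlapped, with BMP4 replicate 2 the lowest of all and PBS replicate 3 the highest.

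For miR-378b the ratio to miR-378a-3p did separate the groups. Per 100 counts of miR-378a-3p the PBS libraries had 1.38 (Wilson interval from 1.13 to 1.68), 1.54 (from 1.44 to 1.64) and 1.95 (from 1.82 to 2.09). The BMP4 libraries had 0.907 (from 0.780 to 1.06), 0.641 (from 0.510 to 0.807) and 1.13 (from 1.05 to 1.21). Every BMP4 value was lower than every PBS value, and the mean went from 1.62 ± 0.293 to 0.892 ± 0.243 (SD, n = 3). Per 100 counts of miR-378c, from which its aligned bases differ only at the end, miR-378b had 10.6, 9.51 and 11.6 in PBS against 5.84, 6.72 and 9.04 in BMP4. These also did not overlap, with PBS replicate 2 and BMP4 replicate 3 the closest. The ratios need no scaling. Pooled over libraries, the counts gave 1.69 in PBS and 1.03 in BMP4 per 100 counts of miR-378a-3p. That order adds nothing, because a pooled ratio lies within the range of its libraries. Ratios that lie apart were common in these libraries. Of 194 partners, the median tested miRNA had 27 with a ratio apart on the higher side and 35 on the lower side. Reads may also be counted under more than 1 of the near copies, so the split between these entries is uncertain.

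For miR-378d there were 0.836, 1.92 and 2.08 counts per 1000 of miR-378a-3p in PBS and 1.40, 1.14 and 2.11 in BMP4. The groups overlapped, and the means of 1.61 ± 0.677 and 1.55 ± 0.503 (SD, n = 3) differed by less than the spread. When the near copies were summed with miR-378a-3p before the fit, the sum was at 1.19 ± 0.28 on the log2 scale (SE, n = 3 per group), and with the copies dropped that of miR-378a-3p was 1.22.

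**Figure D5:**
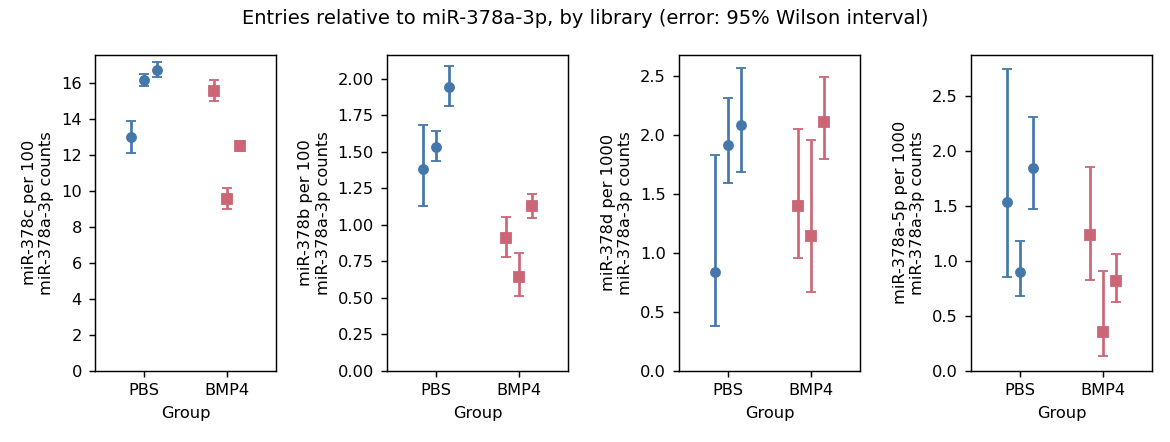
Counts of miR-378c and miR-378b per 100, and of miR-378d and miR-378a-5p per 1000, counts of miR-378a-3p in each library, with the 95% Wilson interval of the share turned into a ratio, each axis starting at 0. The groups lie apart for miR-378b and overlap for the other entries.

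The miRNAs whose log2 CPM over the 6 libraries was most similar to that of miR-378a-3p, out of 179 outside the family with a mean CPM of 10 or more, were miR-194-1-3p (Pearson correlation 0.967), miR-2137 (0.960), miR-215-3p (0.952), miR-215-5p (0.949) and miR-24-2-5p (0.947). All had larger log2 fold changes, from 2.94 to 4.27, than miR-378a-3p. Within the family the correlation was 0.903 for miR-378c, 0.764 for miR-378d, 0.583 for miR-378b and 0.181 for miR-378a-5p. These values mainly carry the step between the groups and share the libraries and their scaling. After each group mean was removed, the closest were miR-125a-5p (0.803), miR-501-3p (0.786), miR-185-5p (0.770), miR-1198-5p (0.748) and miR-671-5p (0.676). For the family entries this correlation was 0.355 for miR-378c, 0.0705 for miR-378b, -0.113 for miR-378d and -0.228 for miR-378a-5p, with 6 libraries and 2 group means removed. The deviations of miR-378a-3p itself were small in BMP4 (-0.0368, 0.0373 and -0.0005) and largest in PBS replicate 3 (-0.336). All of these correlations therefore rest mostly on the PBS libraries.

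miRNAs linked to metabolism by other routes were set beside the family. Of the list hosted by genes of lipid and coenzyme A metabolism, 2 of 6 were tested and neither passed the edgeR test. miR-103-3p, whose hosts are the pantothenate kinases Pank2 and Pank3, was at -0.37 ± 0.29 on the log2 scale (SE, adjusted p = 0.365). miR-107-3p, hosted by Pank1, was at -0.49 ± 0.35 (adjusted p = 0.318). Both were called lower with total counts (-2.17 and -2.21), as were 81% of all tested miRNAs.

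Of the miRNAs with known roles in lipid and glucose metabolism, 10 of 15 were tested, and 3 were higher, 2 lower and 5 not called with TMM, with a median of 0.11. Over all tested miRNAs 17.4% were called higher and 12.8% lower. With total counts 0 of the 10 were higher and 8 lower, with a median of -1.67. miR-148a-3p, a regulator of the LDL receptor, was higher by 1.14 ± 0.36 on the log2 scale (adjusted p = 0.0201) but was called lower, at -0.84, with total counts. Leaving out PBS library 1, 2 or 3 ended the TMM call (adjusted p = 0.123, 0.0571 and 0.101). miR-27b-3p (-0.04 ± 0.30), miR-185-5p (0.25 ± 0.32) and miR-21a-5p (0.69 ± 0.34) did not pass. miR-27a-3p had 0.95 ± 0.34 (adjusted p = 0.0409; -0.79 and not called with total counts) and kept its call in 1 of 6 fits that left out a library, that without BMP4 replicate 2.

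Of the miRNAs with known roles in brown fat, 8 of 15 were tested, and 1 was higher, 3 lower and 4 not called with TMM, with a median of -0.22. With total counts 0 were higher and 8 of 8 lower, with a median of -1.98. miR-203-3p, a miRNA of epithelial differentiation, had 1.03 ± 0.29 (adjusted p = 0.0104; 0.0532 without PBS replicate 1) and was called lower, at -0.83, with total counts. miR-93-5p, of a cluster in the replication gene Mcm7, was lower at -1.45 ± 0.33 (adjusted p = 0.00196), and miR-26a-5p (-0.03 ± 0.28), miR-26b-5p (-0.07 ± 0.32) and miR-182-5p (0.88 ± 0.41) did not pass. Of the miRNAs of mitochondria and glutamine use, 3 of 5 were tested and 1 was called, miR-23a-3p, known in human cells as a repressor of glutaminase, at 2.50 ± 0.37 (adjusted p = 1.54e-05; 0.71 and not called with total counts). The share called over all tested miRNAs was 30.3%, and with total counts 0 of the 3 were higher and 2 lower, with a median of -2.0. miR-23b-3p (-0.40 ± 0.33) and miR-210-3p, the hypoxia miRNA (-0.17 ± 0.33), did not pass. The medians over all tested miRNAs were 0.03 with TMM and -1.78 with total counts.

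Markers of other cells were checked because miR-378a is also a miRNA of muscle and fat. The 9 epithelial markers held 50.3 to 52.7% of counts in PBS and 80.9 to 83.2% in BMP4. With TMM 3 of the 9 were called higher, namely miR-215-5p, miR-194-5p and miR-192-5p, and 0 lower. With total counts 2 were called higher and 7 lower, with a median log2 fold change of -1.47. Of 7 markers of skeletal and heart muscle, 1 was among the rows analysed, miR-1a-3p, with 0.00231 to 0.00414% of counts in PBS and 0.00121 to 0.00195% in BMP4 and a log2 fold change of 0.63 ± 0.41 (adjusted p = 0.284). Of 6 stromal and 3 erythroid markers none was among those rows. The endothelial miR-126a-3p was at -0.46 ± 0.38 (adjusted p = 0.403). 2 of 6 immune markers were tested, and miR-146a-5p was called higher at 1.22 ± 0.39 (adjusted p = 0.0238), against -0.58 and no call with total counts. Leaving out PBS library 1 (adjusted p = 0.0641), PBS library 3 (0.104) or BMP4 library 3 (0.0691) ended that call, and miR-155-5p was at -0.36 ± 0.48 and was not called. The liver marker miR-122-5p was called higher at 2.71 ± 0.57 (adjusted p = 0.000895; 0.83 and not called with total counts), with at most 0.00192% of counts in any library. Of 3 neuronal markers 1 was among the rows, too low to be tested. The part of these cells in the values of miR-378a-3p was not tested.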

How the data were processed

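Small RNA was sequenced from 3 PBS and 3 BMP4 libraries of mouse intestinal organoids. The authors trimmed adaptors with bbmap, kept inserts of miRNA length, mapped reads with miRDeep2 and counted them against the mature miRNAs of miRBase, leaving the counting program at its defaults. The deposited table holds raw counts that were not normalized. Sources used here name neither the build nor the miRBase release nor how entries were kept. At its defaults the program may count a read under more than 1 near-identical entry, so the split between miR-378 entries and their sum are uncertain. The submitters' notes name edgeR, with no version.

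Counts were fitted with edgeR 4.0.16 (R 4.3.3) after filterByExpr and TMM by its quasi-likelihood test, which is 2-sided. The p-values were adjusted over 195 miRNAs after Benjamini and Hochberg, with a threshold of 0.05. The fit was tested on simulated data in which randomly picked miRNAs were changed in both directions. That simulation did not mimic the shift of reads to miR-192, miR-194 and miR-215, so it does not bear on the choice of scaling. The SE was derived from each fold change and F value. Alternatives were RLE and upper quartile factors, total counts, no filter, DESeq2 1.42.0, limma 3.58.1 voom, a replicate block, each library left out, near copies summed or dropped and, added after the data were seen, a total without miR-192, miR-194 and miR-215. Log2 CPM for correlations used a prior count of 2.

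The family, the lists and the naming rule were chosen with earlier results of these data known. Named were the 5 entries, up to 5 of each list's members whose mean CPM reached 10, and the 5 most similar miRNAs by each measure. Wilson intervals address counting error alone, and may be too narrow even for that, because reads copied by PCR do not count separate molecules. The floor of 3 counts equalled 0.722 to 8.02 CPM. Plots used Python 3.11.15 and matplotlib 3.10.9. Libraries of a group differed by more than counting noise (chi-square per degree of freedom from 49.5 to 330), so none was a second deposit of the same counts. This does not show whether they came from separate cultures.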

Additional observations from a re-analysis of the deposited data

How the results depend on the processing

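The direction of all 5 miR-378 entries was reversed with total counts, at -0.60 for miR-378a-3p, -1.21 for miR-378a-5p, -1.36 for miR-378b, -0.83 for miR-378c and -0.57 for miR-378d. The total-count scale divides by libraries of which miR-192, miR-194 and miR-215 took most reads in BMP4. With it 0 entries were called higher and 4 lower, and 171 miRNAs changed, 13 higher and 158 lower, against 59, 34 and 25 with TMM. Entries called higher numbered 3 with TMM and 1 with the total outside miR-192, miR-194 and miR-215, 1 with the replicate block and 1 to 3 with each library left out. Leaving out a library gave 35 to 71 changed miRNAs, 24 to 38 higher and 11 to 33 lower, and 1.15 to 1.38 for miR-378a-3p. The lowest counts of changed (35) and lower (11) miRNAs came without PBS replicate 3, and lower miRNAs numbered 16 with PBS library 1 or 2 left out and 13 with BMP4 library 3 left out. RLE, DESeq2 and limma voom called 3 entries higher, and upper quartile and no filter 2, without miR-378d. The 108 values of shares and ratios with libraries left out or pooled moved by less than 1 SD. A mean of 3 libraries cannot move by 1 SD when 1 of them is left out. That result therefore does not show that the values are stable. The labels do not say whether the replicate numbers of the titles pair the libraries. Correlations of deviations between same-numbered libraries were 0.0430, 0.0943 and -0.0128. PBS replicates 1 and 2 correlated best with the BMP4 library of their own number, and PBS replicate 3 with BMP4 replicate 1 (0.0967). Of the BMP4 libraries, only replicate 2 correlated best with its own number. With 3 libraries per group these values cannot settle whether the libraries were paired. With the block 49 miRNAs changed and miR-378a-3p was past the threshold at 1.22. In that fit miR-378c (0.92) and miR-378d (1.21) were not past it. Depth limits miR-378a-5p and miR-378d, which had as few as 4 and 6 counts in a library.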
